A study of Mus musculus with 6 samples.

Results

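NMDA receptors are ionotropic glutamate receptors, and their subunits are encoded in the mouse by 7 genes, Grin1, Grin2a, Grin2b, Grin2c, Grin2d, Grin3a and Grin3b. The 7 genes were chosen by symbol, with earlier results of these data known. All 7 were found among the 24346 gene symbols of each of 6 retinal mRNA libraries. The libraries came from retinas of mice with a conditional knockout (CKO) of Cyfip2 (CKO 1 to 3) and from wild-type (WT) retinas (WT 1 to 3). The driver of the conditional deletion, the alleles carried by the WT animals, the strain, the age and whether libraries of a group came from separate animals have no entry in the sources used here. P-values may therefore measure only technical spread between libraries. Cyfip2 encodes a subunit of the actin-regulating WAVE complex, and the design asks which retinal transcripts differ when it is deficient. Levels are FPKM, fragments counted per length of transcript and per mapped fragments of the library, so that they can be compared between genes as far as the transcript lengths behind them are right.

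An NMDA receptor is a tetramer built on the obligatory GluN1 subunit, the product of Grin1, which binds the co-agonist glycine or D-serine. The GluN2 subunits (Grin2a to Grin2d) bind glutamate and set the kinetics, the magnesium block and the cytoplasmic partners of the channel. The GluN3 subunits (Grin3a and Grin3b) bind glycine and form receptors with low calcium permeability. In the retina, NMDA receptors are known mainly from ganglion cells and amacrine cells, where they carry part of the excitatory input from bipolar cells.

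The subunits differ at the tip of the pore loop, where an asparagine of GluN1 and GluN2 controls calcium permeability and magnesium block. The coding bases around this site are shown because they set the GluN3 genes apart from the other subunits. The sequences are from GENCODE M21 transcripts on GRCm38, written 5′ to 3′ on the coding strand, and the capitals mark the codon at that site:
Grin1: gtcctgctcAACtctggcatt
Grin2a: ctggtcttcAACaattctgtg
Grin2c: ctggtcttcAACaactctgtt
Grin2d: ctggtgttcAACaactccgtg
Grin3a: cttctgtttGGCagaacagca
Grin3b: attctcttcGGAcgcactgtc
Grin1, Grin2a, Grin2c and Grin2d have the asparagine codon AAC there, and both Grin3 genes have a glycine codon, GGC in Grin3a and GGA in Grin3b. The windows lie in exon 14 of Grin1 (chr2:25297377-25297397, minus strand) and exon 10 of Grin2a (chr16:9653552-9653572, minus). Those of Grin2c and Grin2d are in exon 11 (chr11:115253854-115253874, minus) and exon 8 (chr7:45854384-45854404, minus). Those of Grin3a and Grin3b are in exon 3 of each gene (chr4:49770575-49770595, minus, and chr10:79974537-79974557, plus).

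A stretch of the third membrane segment, 31 codons further on, is among the most conserved parts of the family. It is shown because reads from so similar genes could be assigned to the wrong subunit, and the capitals mark bases that differ from Grin1:
Grin1: tacactgccaacctggcagcc
Grin2a: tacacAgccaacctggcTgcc
Grin2b: tacactgccaacTtAgcCgcc
Grin2c: tacacGgccaaTctggcagcc
Grin2d: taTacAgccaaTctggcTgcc
Grin3a: tacacAgcGaacTtggcTgcT
Grin3b: tacacAgccaacctggcagcT
Between 2 and 5 of the 21 bases differed from Grin1 in the other 6 genes. Over the 123 coding bases that span both windows, identity was 86.2% between Grin2c and Grin2d and 83.7% between Grin2a and Grin2d, the highest of the 21 pairs, and 44.7% between Grin1 and Grin3a, the lowest. Over all annotated transcripts of the 7 genes, no pair shared a run of 50 bases. A run of 25 bases was shared by 3 pairs, Grin2a with Grin2d (8 distinct windows of 25 bases), Grin2b with Grin2c (10) and Grin2c with Grin2d (10). Overlapping windows were counted separately, so several can come from a single longer shared stretch. The sources used here do not state the read length.

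The targeted gene separated the groups. Cyfip2 was at 8.33, 10.2 and 11.2 FPKM in CKO 1 to 3 and at 35.5, 63.1 and 62.3 FPKM in WT 1 to 3, a log2 difference of -2.29 (limma adjusted p = 0.02389). The call was lost, though not the direction, with no filter on low values (limma adjusted p = 0.07396), with robust eBayes (0.1109), without the variance trend (0.1024) and without any library but WT 1 (0.05617 to 0.1817). WT 1 stood at a lower Cyfip2 level than the other WT libraries and above every CKO library. Pearson's r between libraries over the 13215 genes that averaged 1 FPKM or more was 0.9681 to 0.9794, and the depth relative to WT 1, read from the steps of low values, was 1.05 to 1.3. In WT 3 the 10 highest genes held 9.66% of the summed FPKM, against 5.65% to 6.27% in the other libraries. The retinal origin of the libraries showed in Pcp2, a marker of rod bipolar cells, at a mean of 281.2 FPKM. Some markers of neighbouring tissues were also detected. 7 pigment epithelium markers summed to 5.63 to 7.01 FPKM, and 7 oligodendrocyte markers to 23.5 to 28.0 FPKM, with Cnp highest (mean 14.4 FPKM) and Olig2 listed at 0 in all 6 libraries. In each of these lists only 3 of the 7 markers averaged 1 FPKM or more, so the sums rest on few genes. 6 lens markers summed to 22.3 to 39.2 FPKM in CKO libraries and to 35.9 to 220.2 FPKM in WT libraries, and WT 2 stood apart with the crystallin gene Cryaa at 102.8 FPKM, against 9.22 to 35.1 FPKM in the other 5 libraries. Their part in the results was not tested.

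Grin1, the obligatory subunit, dominated the family. It was at 29.6, 30.4 and 30.4 FPKM in CKO 1 to 3 and at 28.3, 31.5 and 30.1 FPKM in WT 1 to 3. The WT libraries held both the lowest and the highest value, so the CKO range lay inside the WT range, and 77.5% of the 13215 tested genes had a lower mean. CKO libraries averaged 30.1 ± 0.503 FPKM and WT libraries 29.98 ± 1.597 FPKM (SD, n = 3 each). Grin1 exceeded the next subunit, Grin2d, by 8.19 to 10.5 times within a library. In every library Grin1 was 2.14 to 2.21 times the sum of the other 6 subunits, with 2.18 ± 0.0361 in CKO and 2.15 ± 0.0228 in WT.

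An antisense gene lies over the end of Grin1. Grin1 spans chr2:25291181-25319187 on the minus strand and Grin1os chr2:25291220-25298925 on the plus strand, and 1307 of the 9700 annotated exonic bases of Grin1 (13.5%) are also exonic in Grin1os. Grin1os was at 5.54, 6.77 and 5.77 FPKM in CKO, and in WT at 4.72, 5.86 and 6.13 FPKM, with overlapping groups (log2 difference 0.10, limma adjusted p = 0.8779). The library kit keeps strand, but whether counting used it is not stated in these sources, and without it fragments of the 2 genes cannot be told apart there. Grin2d likewise shares 643 of its 6658 exonic bases (9.7%) with an antisense gene, Gm45441, whose part in the Grin2d values was not tested. For Grin2b and Grin2c no overlapping gene shared more than 1.8% of the exonic bases.

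**Figure D1:**
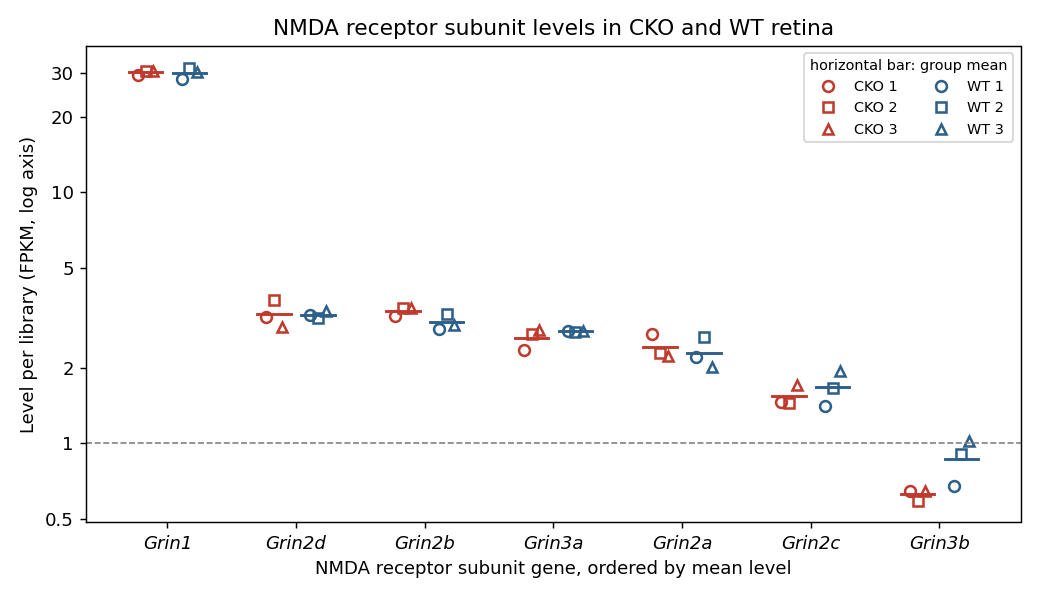
Level of each of the 7 NMDA receptor subunit genes in the 3 CKO and 3 WT libraries, in FPKM on a log axis; symbols are libraries, horizontal bars group means, and the dashed line the minimum mean of 1 FPKM for testing. Grin1 lies near 30.06 FPKM, 5 genes lie between 1 and 4 FPKM, and Grin3b lies below the line in all libraries but WT 3.

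Of the GluN2 genes, Grin2d and Grin2b stood highest, Grin2a followed and Grin2c was lowest. Grin2d, whose product makes slowly deactivating channels with weak magnesium block, was at 3.18, 3.72 and 2.90 FPKM in CKO, and in WT at 3.23, 3.16 and 3.35 FPKM. The 3 WT values lay between the extremes of the CKO values. Grin2b, whose product also forms slow channels and is the main GluN2 partner in young neurons, was at 3.21, 3.45 and 3.46 FPKM in CKO, and in WT at 2.87, 3.27 and 2.96 FPKM. CKO 2 and CKO 3 were above all WT libraries, but CKO 1 was below WT 2, so the groups overlapped.

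Grin2a, whose product gives faster channels and is typical of mature synapses, was at 2.72, 2.297 and 2.22 FPKM in CKO, and in WT at 2.21, 2.66 and 2.02 FPKM. CKO 1 and WT 2 were high and WT 3 low, with no separation by genotype. Grin2c, the GluN2 gene best known from the cerebellum, was at 1.46, 1.45 and 1.71 FPKM in CKO, and in WT at 1.41, 1.66 and 1.94 FPKM. WT 1 held its lowest and WT 3 its highest value.

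In shares of the summed FPKM of the 4 GluN2 genes, Grin2d and Grin2b each held a mean near 31% over the 6 libraries (31.3% and 30.7%), Grin2a 22.6% and Grin2c 15.4%. The share of Grin2b was 30.3%, 31.6% and 33.6% in CKO 1 to 3 and 29.5%, 30.4% and 28.9% in WT 1 to 3. Its mean was thus 31.9% ± 1.65 in CKO and 29.6% ± 0.782 in WT (SD, n = 3 each), and the groups overlapped at CKO 1 and WT 2. The difference of 2.26 percentage points shrank to 0.758 when trends of length and GC content were removed in each library. It was 1.38 without CKO 3 and rose to 3.02 without CKO 1. The shares of Grin2a (22.8% ± 2.58 in CKO, 22.4% ± 2.56 in WT), Grin2c (14.6% ± 1.81 and 16.3% ± 2.28) and Grin2d (30.8% ± 2.995 and 31.8% ± 2.08) differed by less than the larger of their SDs. The ratio of Grin2a to Grin2b, often used to follow the maturation of NMDA receptors, was 0.848, 0.666 and 0.641 in CKO and 0.770, 0.812 and 0.681 in WT. Both the highest and the lowest ratio were in CKO libraries, and the means of 0.718 ± 0.113 and 0.754 ± 0.0673 differed by less than the spread. The 4 GluN2 genes summed to 10.6 ± 0.316 FPKM in CKO libraries and to 10.2 ± 0.525 FPKM in WT libraries.

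**Figure D2:**
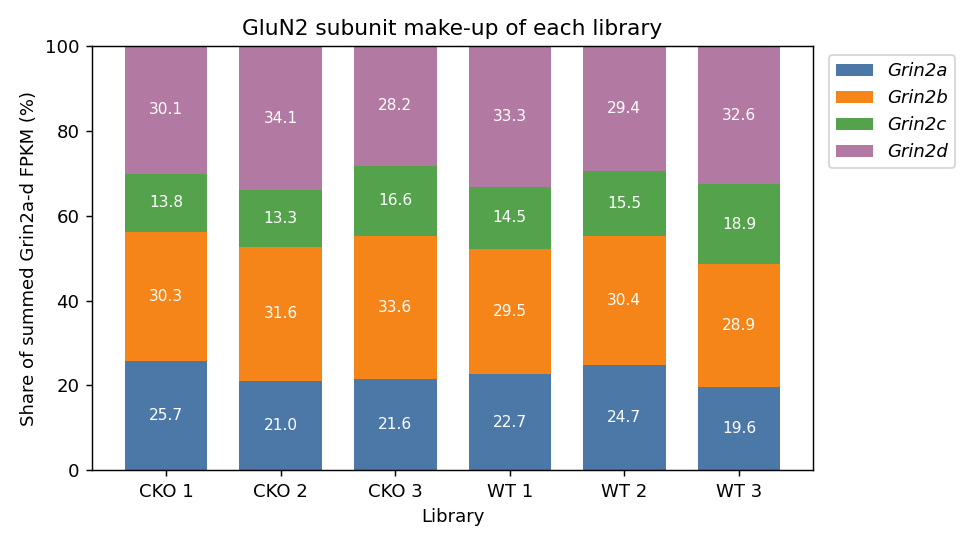
Share of Grin2a, Grin2b, Grin2c and Grin2d in their summed FPKM (%, vertical axis from 0 to 100) for each of the 6 libraries. Grin2b takes 28.9% to 33.6%, Grin2d 28.2% to 34.1%, Grin2a 19.6% to 25.7% and Grin2c 13.3% to 18.9%, and for each gene the CKO and WT libraries overlap.

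The order of the levels depends on the transcript lengths used. Annotated transcripts with the full coding part run from 7484 to 24060 bases for Grin2b (a ratio of 3.21) and from 4395 to 14634 bases for Grin2a (3.33), against ratios of 1 to 1.14 for the other 5 genes. The sources used here do not name the annotation behind the FPKM, and within a library neighbours below Grin1 in the order stood at most 2.65-fold apart. Grin2d (3.26 ± 0.27 FPKM over 6 libraries) and Grin2b (3.20 ± 0.246) did not differ beyond their spread, since Grin2d was the higher in 3 of 6 libraries. Grin2b was above Grin3a (2.72 ± 0.186) in 6 of 6 libraries, by 1.02 to 1.37 times. Grin3a and Grin2a (2.35 ± 0.278) overlapped, with Grin3a higher in 5 of 6. Grin2a was above Grin2c (1.605 ± 0.204) in 6 of 6 libraries, and Grin2c was 1.84 to 2.65 times Grin3b (0.745 ± 0.172). These comparisons concern levels between genes and not genotypes.

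Of the GluN3 genes, Grin3a was the more abundant. It was at 2.35, 2.72 and 2.84 FPKM in CKO, and in WT at 2.81, 2.78 and 2.81 FPKM. CKO 1 was the lowest library, CKO 3 the highest, and the WT libraries lay close together (SD 0.0166 against 0.254 in CKO). The ratio of Grin3a to the summed GluN2 genes was 0.249 ± 0.0267 in CKO and 0.274 ± 0.0155 in WT, with overlapping groups.

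No tested subunit passed the threshold for a difference between the genotypes. Of the 7 genes, 6 averaged 1 FPKM or more and were tested with limma on log2(FPKM + 1) values. None had an adjusted p under 0.05 or an unadjusted p under 0.05, where 0.0227% and 7.88% of all 13215 tested genes did. The adjusted calls over the whole table were 2 genes higher in CKO (0.0151%) and 1 lower (0.00757%), the latter Cyfip2. None of the 6 separated the groups, where 13.9% of all tested genes did. The smallest unadjusted p was 0.2499, for Grin2b. Log2 differences (CKO minus WT) were above 0 for 4 subunits and below 0 for 2, with a median of 0.0049, against -0.0016 over all tested genes, 49.5% of which were above 0.

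The estimates were small and their intervals differed in width. Grin1 had a log2 difference of 0.0085 (SE 0.054, 95% confidence interval -0.12 to 0.13, limma adjusted p = 0.9834), and -0.03 without WT 1. Grin2b had the largest estimate at 0.12 (SE 0.094, interval -0.10 to 0.33, limma adjusted p = 0.7977). Those of Grin2a (0.05, interval -0.23 to 0.33), Grin2c (-0.07, interval -0.36 to 0.22), Grin2d (0.0013, interval -0.24 to 0.24) and Grin3a (-0.07, interval -0.30 to 0.16) had limma adjusted p of 0.9158 to 0.9971. The signs of Grin2a (-0.01 without CKO 1 and -0.0093 without WT 3), Grin2c (0.0025 without WT 3) and Grin2d (-0.07 without CKO 2, -0.0016 without WT 1 and -0.01 without WT 2) turned when 1 library was left out. Without WT 2, the library of highest lens markers, the differences of Grin1, Grin2a and Grin2b were 0.04, 0.13 and 0.16, and the limma adjusted p of the 6 subunits were 0.7959 to 0.9903. With a pseudocount of 0.01 in place of 1, so that the estimates are close to folds of FPKM, the intervals ran from 0.919- to 1.1-fold for Grin1 and from 0.912- to 1.36-fold for Grin2b. They ran from 0.799- to 1.39-fold for Grin2a, from 0.805- to 1.24-fold for Grin2d, from 0.75- to 1.17-fold for Grin3a and, at the widest, from 0.665- to 1.3-fold for Grin2c.

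**Figure D3:**
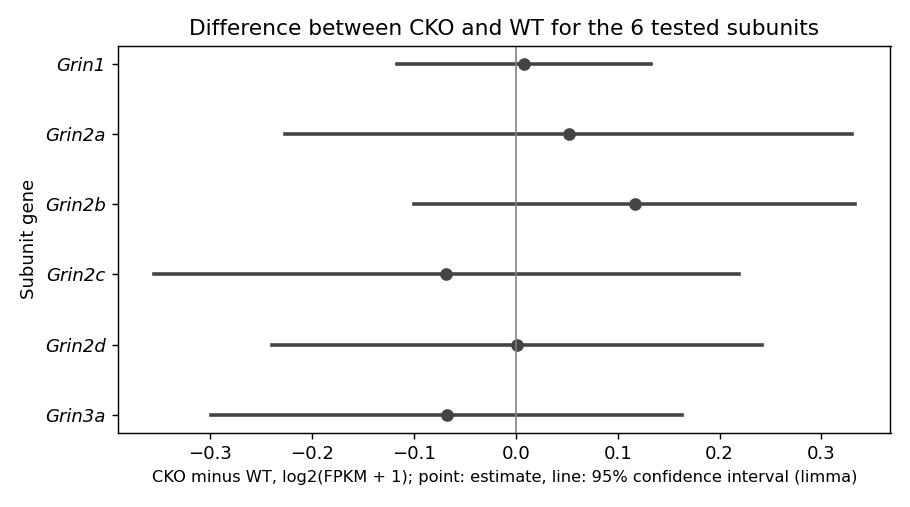
Estimated difference between CKO and WT (log2(FPKM + 1), horizontal axis) for the 6 tested subunit genes; points are limma estimates and lines 95% confidence intervals. Every interval includes 0, and Grin1 has the narrowest, from -0.12 to 0.13.

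Grin3b was the 1 subunit of 7 whose groups did not overlap, against 13.9% of all tested genes (6.95% with CKO lower). It was not in the tested set because its mean was 0.745 FPKM. It was at 0.644, 0.590 and 0.645 FPKM in CKO 1 to 3 and at 0.674, 0.903 and 1.015 FPKM in WT 1 to 3. All CKO libraries were lower than all WT libraries, but WT 1 lay next to the CKO values. CKO libraries averaged 0.626 ± 0.0318 FPKM and WT libraries 0.864 ± 0.174 FPKM (SD, n = 3 each), so that CKO stood at 0.725 times WT. An exact permutation test (two-sided) gave p = 0.1, the smallest that 3 against 3 libraries allow, and 0.7 after adjustment over the 7 subunits. For groups without overlap that test can give no other unadjusted p, so it adds nothing to the separation. With no filter on low values, limma gave a log2 difference of -0.19 (unadjusted p = 0.0741, adjusted p = 0.7265 over 18580 genes), and with a minimum mean of 0.1 FPKM an adjusted p of 0.746. The difference was -0.44 with a pseudocount of 0.01 and -0.13 without WT 3.

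Grin3b shares exons with a gene of the other strand. Grin3b lies at chr10:79970715-79977190 (plus strand) and Tmem259, which encodes the membrane protein membralin, at chr10:79974948-79984330 (minus strand). Of the 3296 exonic bases of Grin3b, 1059 (32.1%) are also exonic in Tmem259. Tmem259 was far more abundant, at 52.8, 52.4 and 56.2 FPKM in CKO, and in WT at 62.2, 61.7 and 61.6 FPKM. Its groups did not overlap either, and it too was lower in CKO without passing the test (log2 difference -0.20, unadjusted p = 0.00219, limma adjusted p = 0.3352). Relative to their means, the WT libraries lay closer together in Tmem259 (61.9 ± 0.302 FPKM) than in Grin3b (0.864 ± 0.174 FPKM, SD, n = 3 each). In FPKM, the SD of Tmem259 was the larger. The part of Tmem259 in the Grin3b values was not tested.

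**Figure D4:**
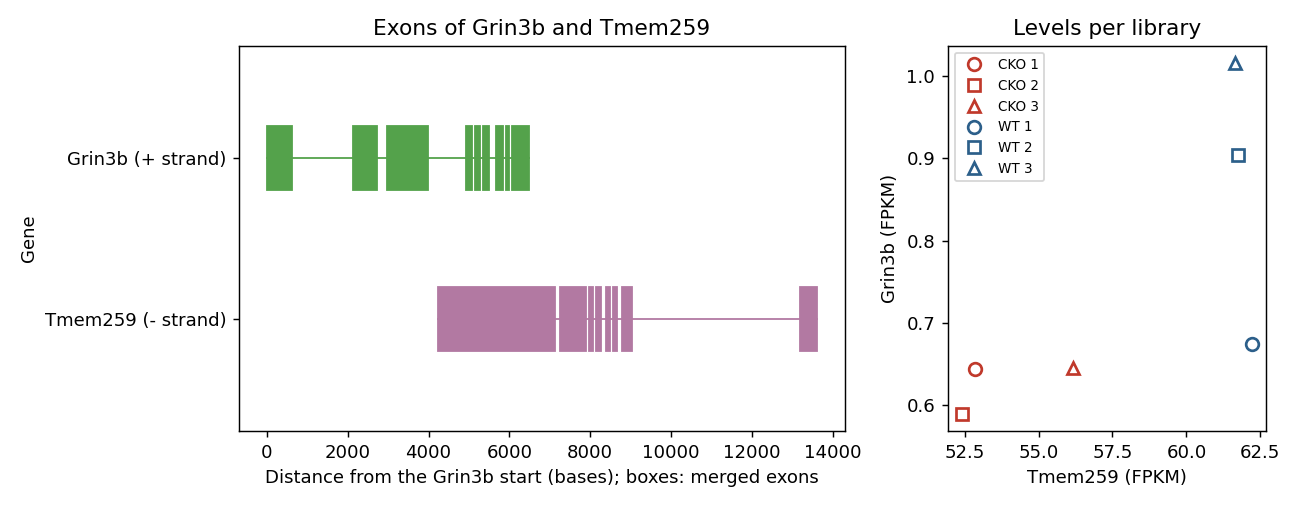
Left, merged exons of Grin3b and Tmem259 by distance from the Grin3b start (bases), with 1059 bases exonic in both; right, Grin3b against Tmem259 level (FPKM) in each of the 6 libraries. The CKO libraries lie lower on both axes than the WT libraries, and the WT libraries lie close together on the Tmem259 axis.

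Over 6 lists of genes around the receptor, none of the 107 tested genes of 113 was called with adjustment over all genes. At an unadjusted p under 0.05, 7 were higher and 2 lower in CKO, against 3.52% and 4.36% of all tested genes, and 11 were higher and 5 lower without overlap of the groups, against 6.96% and 6.95%. Their median log2 difference was 0.0085.

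**Figure D5:**
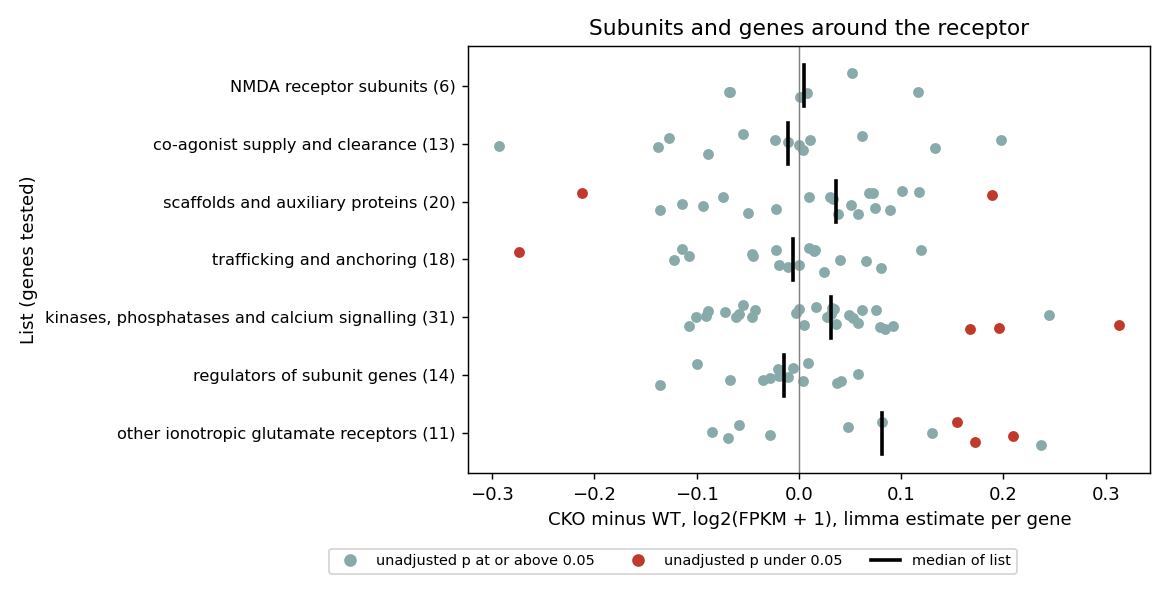
Difference between CKO and WT (log2(FPKM + 1), limma estimate, horizontal axis) for the tested genes of the subunits and of 6 lists, with the number tested in brackets; red points have an unadjusted p under 0.05 and black bars are medians. The subunits lie between -0.07 and 0.12, and the other ionotropic glutamate receptors have the highest median, 0.08.

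The genes for making and clearing the co-agonists glycine and D-serine had 13 tested of 16 (5 above 0, 8 below 0, median -0.01). None had an unadjusted p under 0.05, where 7.88% of all tested genes did. Slc6a9, the glycine transporter GlyT1, was at 72.4, 76.6 and 77.9 FPKM in CKO, and in WT at 65.7, 74.8 and 66.4 FPKM, with overlap at CKO 1 and WT 2 (log2 difference 0.13, limma adjusted p = 0.6561). Psph, the last enzyme of serine synthesis, averaged 14.2 ± 1.88 FPKM over CKO libraries and 12.2 ± 0.376 FPKM over WT libraries, and Psat1, the enzyme before it, at 23.2 ± 1.12 and 25.5 ± 2.76 FPKM. Ddo, which degrades the agonist D-aspartate, was at 0.887 ± 0.223 and 1.33 ± 0.459 FPKM. Srr, the serine racemase that makes D-serine and no part of the rule for named genes, had a log2 difference of -0.01.

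Among the 20 scaffold and auxiliary genes, 13 were above 0 and 7 below 0 (median 0.04). At an unadjusted p under 0.05, 1 was higher and 1 lower, against 3.52% and 4.36% of all tested genes. Ephb2, a receptor tyrosine kinase that binds NMDA receptors at synapses, was at 14.7, 15.2 and 13.8 FPKM in CKO, and in WT at 12.5, 12.6 and 12.8 FPKM (log2 difference 0.19, limma adjusted p = 0.529). Lrfn1, a synaptic adhesion molecule that binds PSD-95, was at 7.82, 7.86 and 7.66 FPKM in CKO, and in WT at 9.70, 9.22 and 8.62 FPKM (-0.21, limma adjusted p = 0.5444). The groups did not overlap for either gene, as for 13.9% of all tested genes. Dlgap4 (38.4 ± 0.665 FPKM in CKO, 36.4 ± 1.13 in WT) and Dlgap3 (20.2 ± 0.279 and 21.3 ± 0.946), scaffolds that bind PSD-95, overlapped between the groups. Dlg4, which encodes PSD-95, was the highest of the list at a mean of 229.6 FPKM.

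Of 18 tested genes of trafficking and anchoring, 8 were above 0 and 10 below 0 (median -0.0053). An unadjusted p under 0.05 was found for 1 of them, against 7.88% of all tested genes. That gene was Lin7c, part of the complex that carries GluN2B along microtubules, at 30.3, 32.7 and 30.7 FPKM in CKO, and in WT at 38.4, 34.96 and 40.7 FPKM. All CKO libraries were lower (log2 difference -0.27, limma adjusted p = 0.3785). Rab11a, a GTPase of recycling endosomes (37.2 ± 1.32 FPKM in CKO, 40.6 ± 2.37 in WT), Rheb, a GTPase upstream of mTORC1 (37.7 ± 1.99 and 41.1 ± 5.49), and Pacsin1, which takes part in the endocytosis of GluN3A (103.3 ± 0.861 and 97.9 ± 9.33), overlapped between the groups. The values of Rheb and Pacsin1 moved with single WT libraries. Rheb had a log2 difference of -0.11, which was -0.03 without WT 1 and -0.22 without WT 2, and Pacsin1 one of 0.08, which was 0.02 without WT 3 and 0.15 without WT 2.

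Of 31 tested genes for kinases, phosphatases and calcium signalling, 20 were above 0 and 11 below 0 (median 0.03). At an unadjusted p under 0.05, 3 were higher and none lower, against 3.52% and 4.36% of all tested genes. Without overlap of the groups, 5 were higher and 3 lower, against 6.96% and 6.95%. Rasgrf1, a calcium-activated Ras exchange factor, had the smallest p, at 20.1, 23.2 and 21.7 FPKM in CKO, and in WT at 17.1, 16.7 and 17.9 FPKM (log2 difference 0.31, limma adjusted p = 0.3044). Dapk1, a death-associated kinase that binds GluN2B, was at 22.8, 23.7 and 23.7 FPKM in CKO, and in WT at 20.9, 21.4 and 19.9 FPKM (0.17, limma adjusted p = 0.5139). Tiam1, a Rac exchange factor that binds NMDA receptors, was at 9.81 ± 0.285 and 8.46 ± 0.721 FPKM. Ppp3r1, the regulatory subunit of calcineurin, was at 85.3 ± 2.66 and 90.8 ± 2.57 FPKM. For all 4 genes the groups did not overlap, and none passed the adjusted threshold.

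The 14 transcriptional and RNA regulators of subunit genes held 5 above 0 and 9 below 0 (median -0.01). None had an unadjusted p under 0.05 or groups without overlap, where 7.88% and 13.9% of all tested genes did. The smallest p values were those of Mef2c, an activity-dependent factor (1.93 ± 0.275 FPKM in CKO, 2.21 ± 0.131 in WT), Fmr1, the fragile X gene (24.9 ± 1.54 and 26.1 ± 1.33), Tbr1, a factor known to activate Grin2b (0.930 ± 0.188 and 1.07 ± 0.238), and Hdac2, a histone deacetylase (46.2 ± 0.856 and 47.4 ± 2.45).

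The other ionotropic glutamate receptors, 11 AMPA, kainate and delta genes, held 7 above 0 and 4 below 0, with a median log2 difference of 0.08. At an unadjusted p under 0.05, 3 were higher and none lower, against 3.52% and 4.36% of all tested genes. Without overlap of the groups, 5 were higher and none lower, against 6.96% and 6.95%. Gria4 was at 44.4, 45.4 and 44.1 FPKM in CKO, and in WT at 39.1, 40.7 and 40.2 FPKM (log2 difference 0.15, limma adjusted p = 0.4598). Gria3, the other AMPA subunit among the smallest p values, averaged 20.2 ± 1.27 FPKM over CKO libraries and 17.8 ± 0.222 over WT libraries. The kainate subunits Grik2 (8.70 ± 0.145 FPKM in CKO, 7.39 ± 0.229 in WT) and Grik4 (2.56 ± 0.246 and 2.02 ± 0.0497) were also higher in every CKO library than in any WT library. None passed the adjusted threshold, and whether these genes differ from the NMDA receptor subunits was not tested.

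Markers of the 2 main cell types known to carry NMDA receptors lay in opposite directions. Of 12 ganglion cell markers, 11 were below 0, and their summed level was 739.1 to 762.4 FPKM in CKO and 809.7 to 876.9 FPKM in WT. At an unadjusted p under 0.05, 6 of them were lower and none higher, against 4.36% and 3.52% of all tested genes. Of 12 amacrine cell markers, 9 were above 0, and their sum was 715.5 to 745.4 FPKM in CKO and 636.5 to 662.6 FPKM in WT, with 8 higher and 2 lower at an unadjusted p under 0.05. Markers of other cell types were mostly below 0 as well. Of 8 horizontal cell markers, 7 were below 0 (4 lower at an unadjusted p under 0.05, none higher, median log2 difference -0.23), and so were 7 of 8 cone markers (4 lower, median -0.18). For bipolar cells 7 of 10 were below 0 (3 lower, median -0.11) and for rods 7 of 8 (1 lower, median -0.08). All 4 tested lens markers were below 0 (3 lower, median -1.43). Of 8 Muller glia markers, 6 were above 0 (median 0.02), with none at an unadjusted p under 0.05. None of these markers passed the adjusted threshold. The 7 subunits together summed to 44.0 ± 0.786 FPKM in CKO libraries and to 43.9 ± 2.24 FPKM in WT libraries, with overlapping groups. In bulk retina, fewer cells of a type and less RNA per cell cannot be told apart, and the part of cell makeup in the subunit values was not tested.

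For each tested subunit, the genes of at least 5 FPKM whose log2 values followed it most closely over the 6 libraries were found by Pearson's r. With 6 points and 9627 or 9628 candidates for each subunit, high values arise in any such search, and they are a description only. They were Hook3 (0.994) and Ptprm (0.989) for Grin1, Ttll7 (0.978) and Trmt61b (0.976) for Grin2a, and Eps15l1 (0.994) and Slc6a9 (0.989) for Grin2b. For Grin2c they were Picalm (0.996) and Ppp1r12c (0.994), for Grin2d Cnot6l (0.979) and Vps54 (0.967), and for Grin3a Sharpin (0.995) and Cyth2 (0.991). Slc6a9, which also stands in the co-agonist and amacrine lists, thus shared the order of Grin2b, with CKO 3 and CKO 2 highest, WT 2 next and WT 1 lowest.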

How the data were processed

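Per the labels' protocols, retinal RNA was isolated with TRIzol and sequenced from stranded mRNA libraries. The authors deposited 1 table per library with an FPKM value for each of 24346 gene symbols. Cufflinks 2.2.1, SAMtools 1.11, TopHat2 2.0.13, Bowtie2 2.3.5.1 and the build mm10 are named in the submitters' processing notes, with no role given. Which gene annotation, strand setting and scaling between libraries were used is not stated there. Dates stood in place of 27 symbols in WT 3, and the matching rows of the other tables gave the symbols back.

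FPKM keeps no read counts, so absolute depth is unknown and no counting interval was set. At genes with a mean under 0.3 FPKM, 79.8% to 83.7% of ratios to WT 1 lay within 0.02 (log2) of a ratio of small whole numbers, which gave the relative depth.

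Values were transformed to log2(FPKM + 1), a scale that understates changes of low genes. Genes that averaged 1 FPKM or more, 13215 in all, were tested with limma 3.58.1 in R 4.3.3 (eBayes with a variance trend, two-sided, no covariate, Benjamini-Hochberg adjustment at 0.05 over all tested genes), and the fit was tested on simulated data. Shares and ratios of subunits were computed from FPKM within a library and described without a test. The subunits, the gene lists, the tests and the alternatives were chosen with earlier results of these data known. Named genes are Cyfip2, the 7 subunits, the 4 tested members of smallest p from each list, the highest marker of a list or one at 0, and the 2 genes most like each tested subunit, where predicted genes and small RNA genes were left out of the search. Srr, Dlg4, Grin1os and Tmem259 were added after their values were seen, the last 2 because they overlap subunit exons. Gm45441 is named only for its overlap with Grin2d. Positions and transcripts are from GENCODE M21 (GRCm38), in which 95.7% of the symbols were found. Same-numbered CKO and WT libraries deviated together only weakly (r = 0.0718, 0.00634 and 0.101), so they were not treated as pairs. One sequence window and one marker gene are not reported here.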

Additional observations from a re-analysis of the deposited data

How the results depend on the processing

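All 6 tested subunits stayed above an adjusted p of 0.05 in every one of the 17 or 18 alternative fits that could test them, the smallest being 0.7016 for Grin2b. A minimum mean of 5 FPKM left only Grin1 testable. The log2 difference ranged from -0.0307 to 0.0437 for Grin1, -0.0122 to 0.13 for Grin2a, 0.0558 to 0.159 for Grin2b, -0.14 to 0.00247 for Grin2c, -0.0735 to 0.0641 for Grin2d and -0.107 to -0.0098 for Grin3a. The sign turned for Grin1 without WT 1, for Grin2a without CKO 1 and WT 3 (-0.00934), for Grin2c without WT 3 and for Grin2d without CKO 2, WT 1 (-0.00161) and WT 2 (-0.0131). The difference of Grin3b stayed below 0 in 13 alternatives (-0.44 to -0.13). Because its groups did not overlap, another pseudocount or filter, or leaving out 1 library, could not turn its sign. None of the 24 named genes of the 6 lists was called or turned in sign in any alternative. The smallest limma adjusted p was 0.1656, for Rasgrf1, but 9 of the 24 moved over 1.5 times when 1 library was left out. The 24 genes had been picked by smallest p in these same data, which favours stable signs. Over all genes, 2 were called higher and 1 lower. The higher count was 1 with the replicate number as a block and without the variance trend, and the lower count was 0 with no filter, with robust eBayes and without the trend. With 1 library left out, 1 to 3 were higher and 0 to 2 lower. Cyfip2 was short of the threshold in those 3 fits and without any library but WT 1, at a log2 difference of -2.37 to -2.15. The block gave no call among the subunits, and CKO 2 did not correlate best with its own number. The Grin2b share difference ranged from 0.758 percentage points with length and GC trends removed to 3.02 without CKO 1. Absolute fragment counts are unknown, so no counting error could be set for Grin3b, the subunit of lowest FPKM.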
